A study of Mus musculus with 4 samples.

Results

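The 36 immediate early genes described here were taken by gene symbol from the 23107 genes of the deposited tables, in cells sorted from the dental follicle, the mesenchymal sheath of a developing tooth. All 36 were listed. Of these, 34 passed a filter on low values, which asked for 10 or more scaled counts in 2 or more libraries and which 14297 genes passed in all. The cells were tdTomato-positive cells, labelled as PTHrP-expressing, from mandibular molars of mice at postnatal day 8, after tamoxifen at postnatal day 3. The conditional heterozygotes (cHet, Ptch1(+/-), n = 2 libraries) were compared with the conditional knockouts (cKO, Ptch1(-/-), n = 2 libraries). Ptch1 is the receptor that restrains hedgehog signalling. Every group went through enzymatic dissociation, tamoxifen and sorting. The Cre driver and the number of animals in a library are not given in the sources used here.

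Immediate early genes are transcribed within minutes of a stimulus, because their promoters are bound by factors that wait in the resting cell. Serum response factor with its partners, CREB and NF-kappaB are the best known of these factors, and MAP kinases, calcium and cyclic AMP switch them on. The products are mostly transcription factors (the AP-1, EGR, KLF and NR4A families) and inhibitors that end the response (phosphatases, SOCS3, IkappaB alpha and proteins that destroy short-lived mRNAs). In mesenchyme they answer growth factors and mechanical load, and they are also known to be induced while a tissue is dissociated into single cells.

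The promoter stretches of 5 members, Fos, Junb, Egr2, Nr4a1 and Btg2, are shown because the values of these genes carry the patterns described below. Each is the 180 bases just before the RefSeq start site, 5′ to 3′ on the gene's strand (RefSeq, GRCm38.p6), and overlaps 0 annotated exons. Those of Egr2 and Nr4a1 lie inside longer annotated transcripts of the same gene. Capitals mark matches to the motifs searched on both strands.
Fos, chr12:85473710-85473889, plus strand: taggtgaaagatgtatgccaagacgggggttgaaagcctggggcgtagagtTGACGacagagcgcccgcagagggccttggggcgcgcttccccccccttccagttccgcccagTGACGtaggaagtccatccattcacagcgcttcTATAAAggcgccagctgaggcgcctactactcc
Junb, chr8:84978749-84978928, minus strand: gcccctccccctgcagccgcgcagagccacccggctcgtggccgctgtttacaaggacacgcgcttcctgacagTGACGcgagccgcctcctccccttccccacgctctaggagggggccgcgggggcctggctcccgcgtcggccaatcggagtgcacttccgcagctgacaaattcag
Egr2, chr10:67537689-67537868, plus strand: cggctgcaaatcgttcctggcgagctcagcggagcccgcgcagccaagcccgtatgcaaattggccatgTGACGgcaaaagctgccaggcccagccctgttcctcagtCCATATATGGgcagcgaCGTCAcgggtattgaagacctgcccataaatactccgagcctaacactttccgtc
Nr4a1, chr15:101266666-101266845, plus strand: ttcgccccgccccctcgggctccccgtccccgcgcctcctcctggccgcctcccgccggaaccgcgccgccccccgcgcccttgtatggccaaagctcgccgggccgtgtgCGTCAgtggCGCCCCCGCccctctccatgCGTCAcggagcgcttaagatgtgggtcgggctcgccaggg
Btg2, chr1:134079156-134079335, minus strand: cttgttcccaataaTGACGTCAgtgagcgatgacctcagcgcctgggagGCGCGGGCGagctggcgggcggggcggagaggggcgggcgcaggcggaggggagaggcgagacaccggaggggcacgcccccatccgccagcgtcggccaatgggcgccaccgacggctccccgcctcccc

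In these stretches, Fos holds 2 copies of TGACG (the core of the cAMP response element bound by CREB) and a TATA box, TATAAA. Junb holds TGACG once. Egr2 holds a CArG box, the binding site of serum response factor, with TGACG before it and the same letters on the opposite strand after it. Nr4a1 holds TGACG on the opposite strand and an EGR site, GCGNGGGCG, between its copies. Btg2 holds the full palindromic cAMP response element TGACGTCA, which contains TGACG on both strands, and an EGR site.

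RefSeq promoters were matched for 31 of the 36 members, and Fosl1, Ier2, Egr1, Egr3 and Klf10 had no entry in the table. A gene was counted if any of its windows, from 250 bases before a start site to 50 after it, held the motif. By this count 18 of the 31 held TGACG, 58.1%, against 23.0% of the 27025 genes with a promoter. The EGR site was found in 13 of the 31 (41.9%, against 6.27% of genes), and the NF-kappaB site in 7 (22.6% against 5.14%). Rarer matches were TGACGTCA in Maff, Dusp1 and Btg2 (3 members, 9.68% against 2.03%) and the CArG box in Egr2 and Zfp36 (2 members, 6.45% against 1.81%). TATAAA was found in 8 members (25.8% against 15.7%). The AP-1 site TGANTCA was found in 2 members, Csrnp1 and Zfp36l1 (6.45% against 8.97%). The members' windows were richer in G and C than those of all genes (median 64.7% against 52.8%), and the part of base composition in these shares was not tested. A match describes the letters only, and sites outside these windows were not searched.

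Libraries are named as in the deposited columns, cHet_0, cHet_1, cKO_0 and cKO_1, and where a pair of values is given for a group, the library numbered 0 comes first. Values are scaled counts, the deposited gene counts after division by a factor for each library, unless FPKM (fragments scaled for transcript length and sequencing depth) is named. Scaled totals lay between 69361800 and 71228300. Library cHet_1 stood apart, with 9850 genes at an FPKM of at least 1 against 11355 to 12360 in the other 3 libraries. Ptch1 was listed at 12867 and 5438 in the heterozygotes, 22420 and 23341 in the knockouts. This gene-level value does not show whether an exon was lost, and Ptch1 is itself a hedgehog target. Pthlh, which encodes PTHrP, was present in every library (8613 to 15879), and 20 of 20 follicle and mesenchyme markers were above 0 in every library. So were all 13 dental epithelium, 5 odontoblast and 9 pericyte and smooth muscle markers. A value above 0 therefore does not tell these cell types apart.

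The data show 1 main pattern. Most immediate early genes were at their highest in 1 of the 2 knockout libraries, cKO_1. The other knockout library, cKO_0, lay close to the heterozygote library cHet_0 in the members' median (log2 difference 0.05), as in that of all genes (0.01). Single members differed between cKO_0 and cHet_0 by -4.78 to 2.40. Of the 34 tested members, 13 had their lowest scaled count in cKO_0 (38.2%, against 18.6% of all genes). Of the 34 tested members, 26 had their highest scaled count in cKO_1 (76.5%), where 27.0% of all genes tested did. None had it in cKO_0 (25.4% of all genes), 7 had it in cHet_1 (29.7% of all genes) and Nfil3 alone had it in cHet_0 (17.8% of all genes). In FPKM, 18 of the 34 were highest in cKO_1 (16.2% of all genes) and 7 in cKO_0 (37.1% of all genes). Another 5 were highest in cHet_1 (13.3% of all genes) and 4 in cHet_0 (33.4% of all genes). Summed, the 36 members held 1.70% of the scaled counts in cHet_0, 1.73% in cHet_1, 1.76% in cKO_0 and 2.83% in cKO_1. In FPKM the sums were 1.85%, 2.35%, 1.91% and 3.05%, so there cHet_1 also lay above cHet_0 and cKO_0. Dental epithelium markers were also at their greatest sum in cKO_1 (3.98% of the scaled counts, against 0.869% to 2.12% in the other libraries), a sum made up mostly of Ambn and Amelx, and their part in this pattern was not tested. In such bulk libraries, fewer cells of a type and less RNA per cell cannot be told apart.

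**Figure D1:**
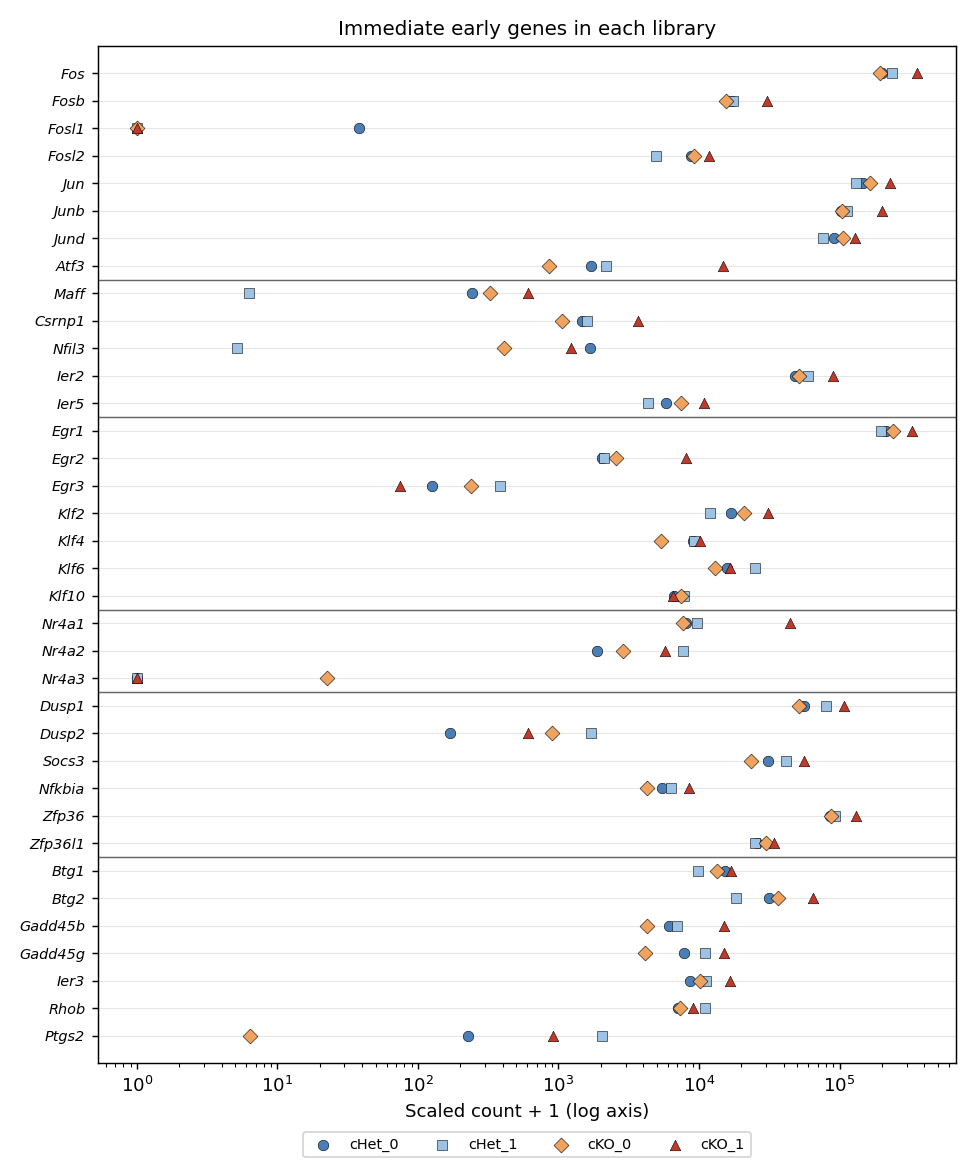
Scaled count plus 1 (log axis) of each of the 36 members in the 4 libraries, with horizontal lines between the groups of roles. The triangles of cKO_1 lie furthest right for 26 of the 34 tested members; Fosl1 and Nr4a3 were at 0 in 3 libraries each.

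**Figure D2:**
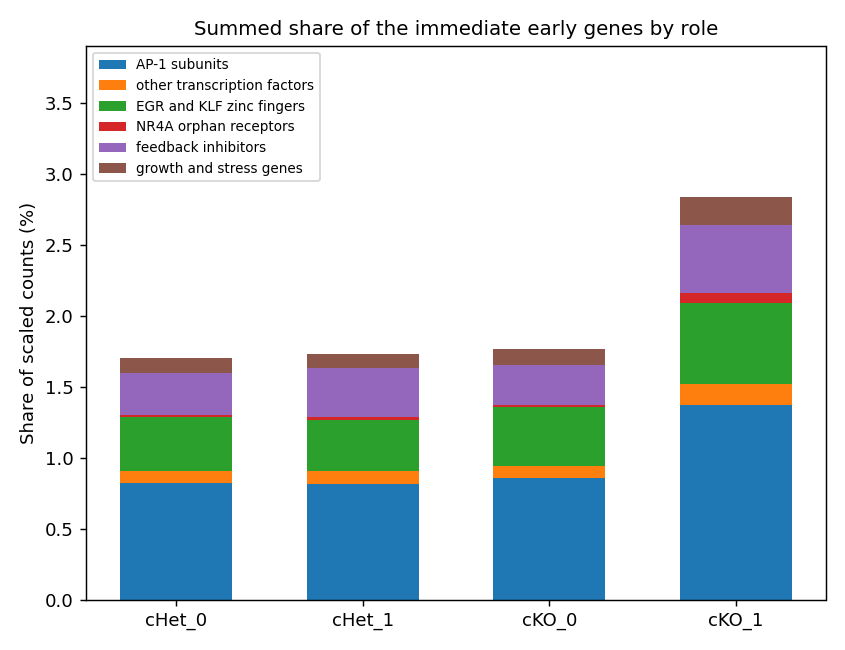
Stacked bars of the share of all scaled counts (%) held by the members in each library, by role. The bars reach 1.70%, 1.73% and 1.76% in cHet_0, cHet_1 and cKO_0 and 2.83% in cKO_1.

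Between cHet and cKO, 0 of the 34 tested members were called higher and 0 lower by limma at a Benjamini-Hochberg adjusted p under 0.05, as for all genes tested (0% in each direction). The members' adjusted p lay between 0.913 and 0.996, and 3 members, Ier5, Klf2 and Btg2, each higher in cKO, had an unadjusted limma p under 0.05. That is 8.82%, where 3.03% of all genes passed (1.54% higher and 1.49% lower in cKO). Values were higher in cKO for 27 of the 34, where 56.3% of all genes were. Their median log2 fold change (cKO minus cHet, of scaled count plus 3) was 0.34, against 0.12 for all genes tested. The groups did not overlap for 10 members, each higher in cKO (29.4%, against 18.0% of all genes), and for 0 members lower in cKO (14.2% of all genes). In FPKM the groups did not overlap for 8 members higher in cKO (11.5% of all genes) and for 0 lower (8.73% of all genes). Jun, Jund, Maff, Egr1, Egr2 and Klf2 were the 6 whose groups did not overlap in scaled counts and in FPKM alike. With the libraries rescaled by the median of ratios, the median of all genes moved from 0.12 to 0.02 and that of the members to 0.23, with 24 of 34 higher.

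This difference changed with single libraries. Without cKO_1, 16 of 34 members were higher and the median log2 fold change was -0.039, below the 0.16 of all genes. Without cHet_0 the members' median was 0.26 (22 higher) and that of all genes 0.23, so the members lay 0.03 above all genes, where they lay 0.22 above them with all 4 libraries. Without cKO_0 the median was 0.70 (31 higher; all genes 0.11), and without cHet_1 it was 0.38 (29 higher; all genes -0.05). From library to library, the members' median log2 difference was 0.05 for cKO_0 minus cHet_0 (all genes 0.01). For cKO_1 minus cHet_0 it was 0.88 (all genes -0.04). The difference inside the knockout group, cKO_1 minus cKO_0, had a median of 0.84 with 31 of 34 members above 0, whereas the median of all genes was -0.05. Inside the heterozygote group, cHet_1 minus cHet_0 had a median of 0.17 with 23 members above 0, against -0.23 for all genes. In FPKM the median of cKO_1 minus cKO_0 was 0.39 (23 of 34 above 0; all genes -0.54), and that of cHet_1 minus cHet_0 turned to -0.26 (12 above 0; all genes -0.76). In 20 of 34 members the library numbered 1 was above the library numbered 0 in both groups, against 20.8% of all genes, and the labels do not say that these numbers mark a shared batch.

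**Figure D3:**
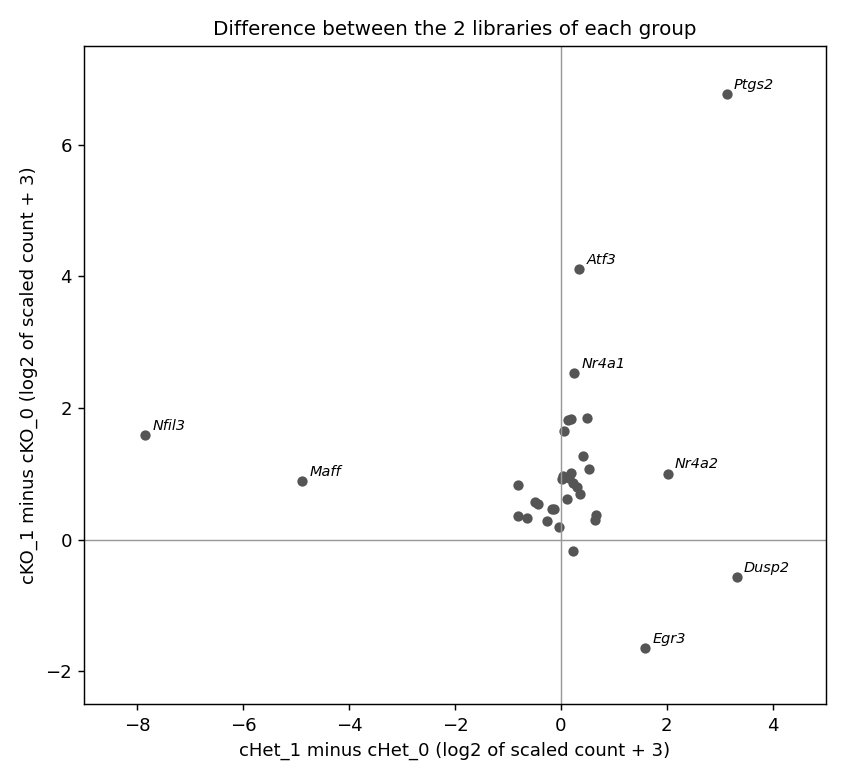
Each point is a tested member; the horizontal axis is the log2 difference of scaled count plus 3 between cHet_1 and cHet_0, the vertical axis that between cKO_1 and cKO_0. All but 3 of the 34 points lie above 0 on the vertical axis, and Nfil3 and Maff lie far to the left.

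The AP-1 subunits, leucine zipper proteins that pair to bind DNA, were the most abundant group, with 0.820% of the scaled counts in cHet_0, 0.816% in cHet_1, 0.857% in cKO_0 and 1.37% in cKO_1. All 7 tested subunits were highest in cKO_1 in scaled counts. In FPKM, Jun (826 in cKO_0, 750 in cKO_1) and Fosl2 (23.3 and 16.6) were highest in cKO_0. Fos (chromosome 12, 85473890 to 85477273, mm10) was listed at 200327 and 236000 in the heterozygotes, 194974 and 353039 in the knockouts. The cKO libraries thus lay on either side of the cHet libraries, with a log2 fold change of 0.27 (SE 0.35) that was -0.16 without cKO_1. Its close relative Fosb stood at 17054 and 17457 in the heterozygotes, 15611 and 30410 in the knockouts, in the same order of libraries.

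Junb, a Jun protein that restrains Jun itself in many settings, was listed at 102063 and 113443 in the heterozygotes, 104803 and 199343 in the knockouts. Its log2 fold change was 0.43 (SE 0.34), and -0.038 without cKO_1. Junb shares 351 bases with Prdx2 on the opposite strand in the annotation, and the sources used here do not say if reads were counted by strand. For Jun the values were 147479 and 131128 in the heterozygotes, 166010 and 229880 in the knockouts. Those of Jund, the subunit that is present without a stimulus, were 91481 and 76024 in the heterozygotes, 105907 and 129176 in the knockouts. For both genes the groups did not overlap, with log2 fold changes of 0.49 (SE 0.28) for Jun and 0.49 (SE 0.25) for Jund. They were 0.26 and 0.34 without cKO_1, and 0.41 and 0.35 without cHet_1.

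Fosl2, a Fos-related subunit expressed in bone-forming cells, was at 8748 and 4970 in the heterozygotes, 9165 and 11732 in the knockouts (log2 fold change 0.65, SE 0.35; 0.25 without cHet_1). Its lowest value was that of cHet_1. Fosl1 was listed at 37.2 in cHet_0 and at 0 in the other 3 libraries, and did not pass the filter.

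Atf3, a stress-induced partner of the AP-1 proteins (chromosome 1, 191170296 to 191218039), stood apart in size. It was listed at 1700 and 2169 in the heterozygotes, 849 and 14714 in the knockouts, so that the cKO libraries differed 17.3-fold while the cHet libraries differed 1.28-fold. The log2 fold change of 0.88 had an SE of 1.13, and was -1.17 without cKO_1 and 2.94 without cKO_0.

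Among the other transcription factors and nuclear proteins, Ier2 was listed at 48304 and 60002 in the heterozygotes, 51498 and 89726 in the knockouts (log2 fold change 0.34, SE 0.31; -0.064 without cKO_1). Ier5, a regulator of the heat shock response (chromosome 1, 155096361 to 155099636), stood at 5838 and 4318 in the heterozygotes, 7473 and 10862 in the knockouts. Its groups did not overlap in scaled counts, and its log2 fold change of 0.84 (SE 0.34, limma, adjusted p = 0.913) was 0.57 without cKO_1 and 0.63 without cHet_1. In FPKM the groups of Ier5 overlapped, at 28.4 and 8.33 in the heterozygotes, 36.4 and 23.2 in the knockouts.

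Csrnp1, a nuclear protein first found as an axin-induced gene, was at 1464 and 1600 in the heterozygotes, 1050 and 3697 in the knockouts. Csrnp1 shares 13496 bases with Cx3cr1 on the same strand in the annotation, so how reads were divided between them is uncertain. Low and uneven values marked Maff, a small Maf protein, at 241 and 5.23 in the heterozygotes, 324 and 604 in the knockouts, and Nfil3, a bZIP repressor, at 1663 and 4.19 in the heterozygotes, 407 and 1227 in the knockouts. Both were almost missing from cHet_1. Their log2 fold changes of 3.31 (SE 2.38) and 2.70 (SE 2.60) were 0.87 and -1.23 without that library.

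The EGR and KLF zinc finger factors were divided in direction, as 3 of 7 had higher values in cKO, and their median log2 fold change was -0.039. Egr1, a direct target of serum response factor, was listed at 215122 in cHet_0, 195710 in cHet_1, 238656 in cKO_0 and 329256 in cKO_1. Its groups did not overlap, in scaled counts or in FPKM (log2 fold change 0.45, SE 0.30; 0.22 without cKO_1 and 0.38 without cHet_1). Egr2, its relative with known roles in Schwann cells and bone (chromosome 10, 67535475 to 67542188), was listed at 2040 and 2113 in the heterozygotes, 2565 and 8051 in the knockouts. The log2 fold change of 1.13 (SE 0.59) was 0.30 without cKO_1. Egr3 had low counts, with 125 and 381 in the heterozygotes, 238 and 73.8 in the knockouts, and was lowest in cKO_1. Its log2 fold change of -0.70 (SE 2.01) was 0.091 without cHet_1.

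Klf2, best known as the flow-induced factor of endothelium (chromosome 8, 72319033 to 72321656), was at 16781 and 12010 in the heterozygotes, 20760 and 30958 in the knockouts. The groups did not overlap in either unit. The log2 fold change was 0.84 (SE 0.30, limma, adjusted p = 0.913), 0.55 without cKO_1 and 0.60 without cHet_1. Klf4 was lowest in cKO_0, at 9054 and 9240 in the heterozygotes, 5359 and 10124 in the knockouts (log2 fold change -0.31, SE 0.36; 0.15 without cKO_0). Klf6 was highest in cHet_1, at 15920 and 25090 in the heterozygotes, 12895 and 16650 in the knockouts (log2 fold change -0.45, SE 0.30; -0.12 without cHet_1). In FPKM Klf6 was highest in cHet_0, at 58.5 and 25.7 in the heterozygotes, 45.9 and 20.5 in the knockouts. The scaled counts of Klf10, the TGF-beta-inducible member, were close together in all 4 libraries, 6618 and 7794 in the heterozygotes, 7440 and 6572 in the knockouts (log2 fold change -0.039, SE 0.30; 0.079 without cHet_1). Its FPKM values were not, at 32.8 and 13.2 in the heterozygotes, 36.5 and 12.3 in the knockouts.

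Of the NR4A orphan nuclear receptors, Nr4a1 (chromosome 15, 101254269 to 101274795) was listed at 8058 and 9606 in the heterozygotes, 7663 and 44261 in the knockouts. Library cKO_1 thus held 5.78 times the value of cKO_0, and the other 3 libraries lay close together. In FPKM the values were 48.8 and 64.7 in the heterozygotes, 47.9 and 301 in the knockouts. The log2 fold change was 1.07 (SE 0.68), -0.20 without cKO_1 and 2.33 without cKO_0. Nr4a2 followed another order, with 1887 and 7644 in the heterozygotes, 2865 and 5730 in the knockouts, highest in cHet_1. Its log2 fold change of 0.09 (SE 0.67) was 1.10 without cHet_1, -0.92 without cHet_0 and -0.012 after rescaling by the median of ratios. Nr4a3 was listed at 21.5 in cKO_0 and at 0 in the other 3 libraries, and did not pass the filter.

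The feedback inhibitors held 0.293% of the scaled counts in cHet_0, 0.348% in cHet_1, 0.281% in cKO_0 and 0.478% in cKO_1, and 5 of the 6 were highest in cKO_1. Dusp1, a phosphatase that switches off MAP kinases, was listed at 55961 and 80691 in the heterozygotes, 51137 and 107138 in the knockouts. Socs3, the inhibitor of JAK and STAT signalling, was at 30768 and 41272 in the heterozygotes, 23334 and 56208 in the knockouts. Nfkbia, which encodes IkappaB alpha, was at 5479 and 6294 in the heterozygotes, 4238 and 8533 in the knockouts. In each of these 3 genes the cHet libraries lay between the cKO libraries, and the log2 fold changes were 0.14 (SE 0.37), 0.02 (SE 0.40) and 0.03 (SE 0.40). Without cKO_1 they were -0.39, -0.61 and -0.47, and after rescaling by the median of ratios those of Socs3 and Nfkbia were -0.081 and -0.070.

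Zfp36, which encodes tristetraprolin, a protein that binds AU-rich mRNAs and speeds their decay, was at 84995 and 92535 in the heterozygotes, 86307 and 131577 in the knockouts (log2 fold change 0.26, SE 0.28; -0.039 without cKO_1). Its family member Zfp36l1 varied less, at 25831 and 25071 in the heterozygotes, 29920 and 34187 in the knockouts (log2 fold change 0.33, SE 0.23; 0.23 without cKO_1). The groups of Zfp36l1 did not overlap in scaled counts. They did in FPKM, at 140 and 41.0 in the heterozygotes, 163 and 71.4 in the knockouts. Dusp2, a phosphatase of immune cells, ranged from 168 in cHet_0 to 1700 in cHet_1, with 895 and 603 in cKO (log2 fold change 0.45, SE 1.41; 2.11 without cHet_1 and -1.21 without cHet_0).

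Among the growth and stress genes, the antiproliferative gene Btg2 (chromosome 1, 134075170 to 134079120) was at 31715 and 18181 in the heterozygotes, 36555 and 65083 in the knockouts. The groups did not overlap in scaled counts, with a log2 fold change of 1.02 (SE 0.36, limma, adjusted p = 0.913). It was 0.61 without cKO_1 and 0.62 without cHet_1. In FPKM they did overlap, at 161 and 38.7 in the heterozygotes, 185 and 155 in the knockouts. Its relative Btg1 was at 15404 and 9903 in the heterozygotes, 13369 and 16813 in the knockouts (log2 fold change 0.28, SE 0.30; -0.039 without cHet_1).

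The Gadd45 genes encode small stress proteins that activate p38 and JNK kinases. Gadd45b was listed at 6125 and 6954 in the heterozygotes, 4247 and 15066 in the knockouts, and Gadd45g at 7778 and 10976 in the heterozygotes, 4158 and 14966 in the knockouts. Library cKO_1 held 3.55 and 3.60 times the value of cKO_0 for these 2 genes, and the cHet libraries lay between them. The log2 fold changes were 0.29 (SE 0.54) and -0.23 (SE 0.55), and -0.62 and -1.15 without cKO_1. Ier3, an early gene that protects from apoptosis, was at 8670 and 11175 in the heterozygotes, 10224 and 16530 in the knockouts. Rhob, a small GTPase of the cytoskeleton, was highest in cHet_1, at 7052 and 10987 in the heterozygotes, 7329 and 8990 in the knockouts (log2 fold change -0.12, SE 0.32; 0.20 without cHet_1). Ptgs2, the inducible cyclooxygenase, was low and uneven, at 228 and 2024 in the heterozygotes, 5.39 and 910 in the knockouts (log2 fold change -2.97, SE 2.55; -1.40 without cHet_1 and 0.42 without cKO_0).

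**Figure D4:**
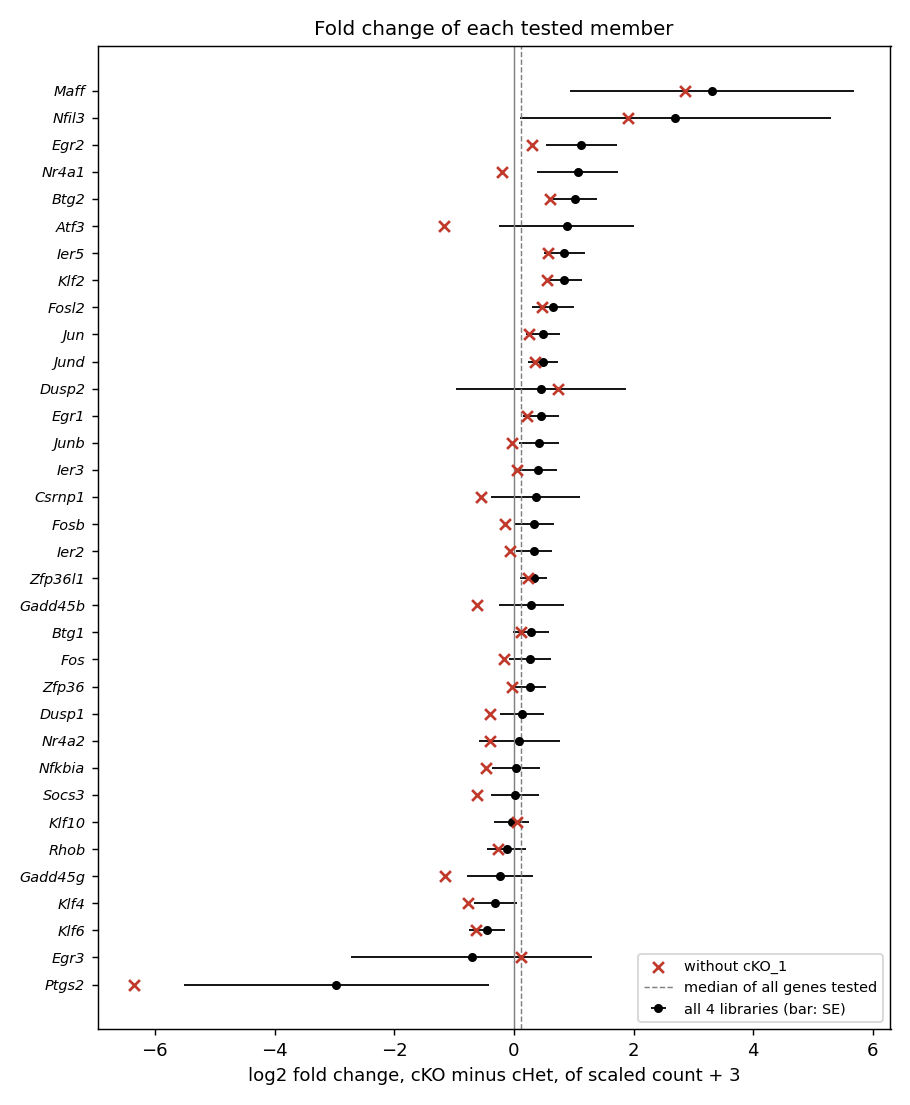
The log2 fold change (cKO minus cHet, of scaled count plus 3) of each of the 34 tested members with its limma SE (black), and the same without cKO_1 (red crosses); the dashed line is the median of all genes tested, 0.12. Without cKO_1, 16 of the 34 crosses lie above 0.

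By the order of the 4 libraries, the members fell mostly into 3 patterns, read from their values. In 11 members cKO_0 was lowest, followed by cHet_0, cHet_1 and cKO_1 (32.4%, against 3.10% of all genes): Fos, Fosb, Atf3, Csrnp1, Klf4, Nr4a1, Dusp1, Socs3, Nfkbia, Gadd45b and Gadd45g. In 9 members the order ran cHet_1, cHet_0, cKO_0, cKO_1 (26.5%, against 8.22% of all genes): Fosl2, Jun, Jund, Maff, Ier5, Egr1, Klf2, Zfp36l1 and Btg2. In 4 members, Junb, Ier2, Zfp36 and Ier3, it ran cHet_0, cKO_0, cHet_1, cKO_1 (11.8% against 2.21%). The 9 members of the second order and Egr2 are the 10 whose groups did not overlap. By that choice their cKO_0 values must exceed those of cHet_0, here by 0.07 (Fosl2) to 0.42 (Maff) on the log2 scale. Over all 34 tested members the median of this difference was 0.05, with 19 above 0.

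**Figure D5:**
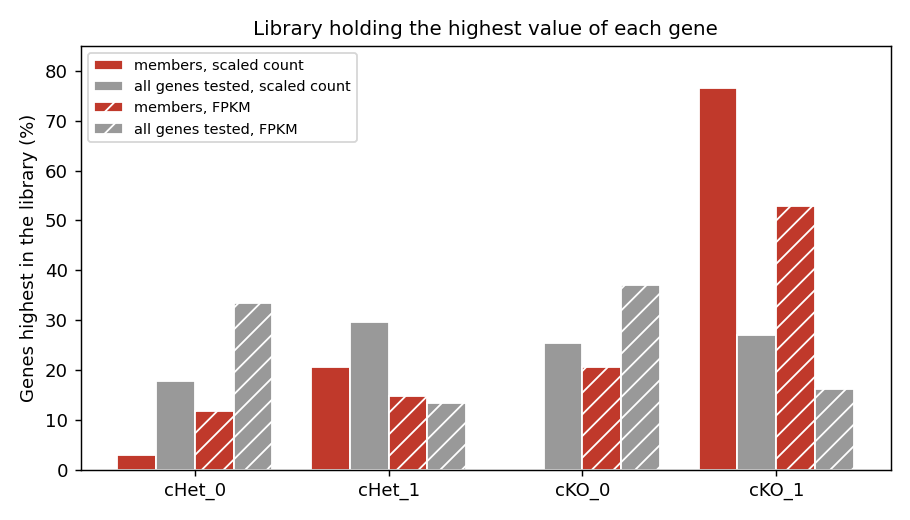
Percentage of genes whose highest value lay in each library, for the 34 tested members (red) and all 14297 genes tested (grey), in scaled counts (plain) and FPKM (hatched). In cKO_1 the members reach 76.5% and 52.9%, all genes 27.0% and 16.2%.

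Levels between genes were compared per length, in FPKM, but FPKM relative to scaled count was not steady between libraries. Zfp36l1 stood at 25831 in cHet_0 and 25071 in cHet_1 in scaled counts, but at 140 and 41.0 in FPKM. Ier2 went from 48304 to 60002 in scaled counts and from 520 to 962 in FPKM. Ranks of genes in FPKM can therefore differ between libraries for this reason. The same 8 members, Fos, Jun, Junb, Jund, Ier2, Egr1, Dusp1 and Zfp36, were among the 100 genes of highest FPKM in each of the 4 libraries. Fos had the highest FPKM of the members in cHet_0 (1428), ranking 13 among all genes, and in cKO_0 (1407, rank 17). Junb was highest in cHet_1 (1459, rank 12) and in cKO_1 (2361, rank 16), where Fos stood at 1755. This change of the top gene was seen in FPKM only. In scaled counts Fos was above Junb in every library, at 236000 against 113443 in cHet_1 and 353039 against 199343 in cKO_1. Those 8 genes made up 78.4% to 81.4% of the members' summed scaled counts, so the summed shares describe mainly them. Below them in FPKM the spread was wide: Socs3 ranged from 136 in cKO_0 to 326 in cKO_1, Klf2 from 104 in cHet_1 to 275 in cKO_1, and Egr2 from 6.43 in cHet_1 to 26.4 in cKO_1. Leaving out 1 library let limma call 3 members higher at an adjusted p under 0.05: Nr4a1 (adjusted p = 3.55e-05) and Atf3 (adjusted p = 0.00725) without cKO_0, and Nfil3 (adjusted p = 0.0406) without cHet_0. Without cKO_0, 7 of all 14297 genes were called higher (0.0490%). Without cHet_0, 1061 were (7.42%), a larger share than the 1 of 34 members. The remaining library of the reduced group is then assumed to vary like the other group. In the full groups, the cKO libraries differed 5.78-fold for Nr4a1 and 17.3-fold for Atf3, and the cHet libraries stood at 1663 and 4.19 for Nfil3.

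The factors that switch immediate early genes on (serum response factor, its partners, CREB and MAP kinases) were listed with their own transcripts. Of 21 tested, 10 had higher and 11 lower values in cKO (median log2 fold change -0.040), and 6 were highest in cKO_1 (28.6%, against 27.0% of all genes). Creb1 was at 5778 and 9032 in the heterozygotes, 4249 and 3916 in the knockouts (log2 fold change -0.82, SE 0.36). Mknk2, a kinase downstream of MAP kinases, was at 6994 and 4947 in the heterozygotes, 9042 and 9405 in the knockouts. Of 37 tested feedback genes and partners outside the 36, 23 had higher and 14 lower values (median 0.095), and 14 were highest in cKO_1 (37.8%). Socs1 stood at 3713 and 2848 in the heterozygotes, 5161 and 8219 in the knockouts, while Dusp6, the ERK phosphatase, had lower values in cKO, at 4954 and 5598 in the heterozygotes, 2866 and 2611 in the knockouts. In both lists 0 genes passed the adjusted threshold in limma, and Socs1 and Dusp6 had an unadjusted p under 0.05 (2 of 58, or 3.45%, against 3.03% of all genes).

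Of 52 tested further immediate early genes, 30 had higher and 22 lower values in cKO (median 0.15, against 0.12 for all genes), and 29 were highest in cKO_1 (55.8%, against 27.0% of all genes). Their summed share was 0.807% in cHet_0, 0.773% in cHet_1, 0.785% in cKO_0 and 0.990% in cKO_1, again greatest in the last. Plk2, a polo-like kinase, was at 4991 and 3383 in the heterozygotes, 7061 and 7502 in the knockouts, and Ppp1r15a, a stress-response phosphatase subunit, at 8667 and 12741 in the heterozygotes, 13199 and 18117 in the knockouts. The chaperones and ubiquitin genes, which dissociation can also induce, had a summed share of 0.450% to 0.455% in the 4 libraries, and 7 of the 19 were highest in cKO_1 (36.8%). Dnajb1 was the chaperone with the lowest p, at 10270 and 11140 in the heterozygotes, 14493 and 19753 in the knockouts (log2 fold change 0.66, SE 0.27). In these lists too, 0 genes passed the adjusted threshold in limma, and Plk2 and Dnajb1 had an unadjusted p under 0.05 (2 of 71, or 2.82%, against 3.03% of all genes).

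Of 6 lists of markers of other cells, 5 had their greatest sum in cKO_1, and the odontoblast markers did not. The 13 dental epithelium markers summed to 0.869% of the scaled counts in cHet_0, 2.12% in cHet_1, 1.41% in cKO_0 and 3.98% in cKO_1. Most of each sum was that of the enamel matrix genes Ambn and Amelx (0.636%, 1.53%, 1.26% and 3.27% in the same order). The other 11 summed to 0.233%, 0.589%, 0.153% and 0.711%: 10 of them were lower in cKO_0 than in cHet_0, and Cdh1, Epcam, Trp63 and Enam were not highest in cKO_1. The 15 endothelial markers reached 0.0337% in cKO_1, against 0.00607% to 0.0109% in the other libraries. Among them, Pecam1 and Sox17 were at 0 in cHet_0, Emcn in cKO_0 and Erg in every library except cHet_0. The 11 leukocyte markers ranged from 0.00251% in cKO_0 to 0.0194% in cKO_1, with Ptprc and Fcer1g at 0 in cHet_1 and Emr1 (F4/80) at 0 in cKO_0. The 11 Schwann cell markers ranged from 0.0231% in cHet_1 to 0.0659% in cKO_1, with Egfl8 at 0 in cKO_0. Sums of the 9 pericyte and smooth muscle markers lay between 0.120% and 0.152%. The 5 odontoblast markers had 0.145% in cHet_0, 0.139% in cHet_1, 0.0241% in cKO_0 and 0.0356% in cKO_1. The sum of the 20 follicle and mesenchyme markers was lowest in cKO_1, at 8.67%, with 9.39% in cKO_0, 12.2% in cHet_0 and 13.0% in cHet_1. Most of each sum was that of Col1a1, Col1a2, Col3a1 and Igfbp5, so it does not describe the other markers. Of the 20, 3 (Twist1, Msx1 and Mgp) were highest in cKO_1. The part of these cells in the high values of cKO_1 was not tested.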

How the data were processed

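RNA from sorted cells was isolated with PicoPure, amplified with SMART-Seq v4 and made into Nextera XT libraries, per the labels' protocols. The submitters' processing notes name mm10 as build and list FastQC, Cufflinks, Cuffdiff, HTSeq, DESeq2, Bowtie2 (2.2.1) and TopHat2 (2.0.13), without their roles. The deposited signal values, called scaled counts here, are gene counts after the authors' division by a factor for each library. Of each library's values under 100000, 96.5% to 99.0% lay within 0.1 read of a whole multiple of its commonest value, and no count model was used. The deposited FPKM values, scaled by the authors for transcript length and depth, served as an alternative and to compare genes. There are 16 more columns of per-sample values whose names fit no label, and these were left out. Columns were given a group, not a sample, because columns count from 0 and titles from 1. The labels do not tie libraries to animals, and p-values then reflect the spread among these libraries alone, which may be technical.

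The step of each library implies 62300000 to 85700000 reads on genes, so the error from counting reads is small for most members. Reads of amplified cDNA do not count molecules.

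A limma model (3.58.1) in R (4.3.3), with group as its only term and a trended variance, was fitted to log2(scaled count + 3) of 14297 genes. The model was also run on simulated data, where recovery of added changes was required only at a spread far below that of these data. That check does not show how often such changes would be found here. P-values are two-sided, moderated and Benjamini-Hochberg adjusted over all genes, with 0.05 as threshold. Fold changes on this scale understate those of low genes, and SEs are drawn toward the trend. The members, gene lists, markers and settings were chosen with earlier results of these data known. All 36 members are named; of other lists, genes were named from the up to 4 with the lowest p among those whose groups did not overlap. Annotation overlaps on the opposite strand could mix reads for Fosl1 (Ccdc85b), Junb (Prdx2) and Dusp1 (Ergic1). Coordinates are from GENCODE vM21 (mm10), 1-based. Alternatives were other pseudocounts, filters, scalings and units, library weights, a replicate block and leaving out each library.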

Additional observations from a re-analysis of the deposited data

How the results depend on the processing

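Under the 11 alternatives with all 4 libraries, 0 members were called in either direction, 24 to 29 (of 29 to 36 fitted) had higher values in cKO and their median log2 fold change lay between 0.23 and 0.39. Scaling by the median of ratios or a trimmed mean moved the median of all genes from 0.12 to 0.02 and left the members' median 0.21 above it, as against 0.22. With these scalings, in that order, the sign turned for Nr4a2 (-0.012 and -0.017), Socs3 (-0.081 and -0.086) and Nfkbia (-0.070 and -0.075). Klf10 turned to 0.022 with log2(FPKM + 1), with or without a filter, and to 0.021 with log2(FPKM + 0.1). With the replicate block (the number in the column name), 0 members were called, 27 were higher and the median was 0.34. In scaled counts, deviations of libraries of the same number correlated at 0.049 across all genes, which does not show pairing. In FPKM, however, the median log2 difference of all genes was -0.76 for cHet_1 minus cHet_0 and -0.54 for cKO_1 minus cKO_0. It was 0.0052 for cKO_0 minus cHet_0 and 0.16 for cKO_1 minus cHet_1. The source of this shift shared by libraries of the same number was not tested.

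Leaving out each library in turn gave 0 to 2 members called higher, 0 called lower, 16 to 31 with higher values, and medians from -0.039 to 0.70. In the same fits, the genes past the threshold in all numbered 1061 (higher) and 78 (lower) when cHet_0 was dropped, 7 and 5 for cKO_0, 10 and 32 for cKO_1, and 0 and 0 for cHet_1. Between 46.2% and 58.0% of all genes had higher values. The sign of 22 members turned in at least 1 of these fits, with the following lowest and highest log2 fold changes. AP-1 subunits: Fos -0.16 to 0.70, Fosb -0.14 to 0.82, Junb -0.038 to 0.89 and Atf3 -1.17 to 2.94. Other factors: Csrnp1 -0.54 to 1.27, Nfil3 -1.23 to 6.63, Ier2 -0.064 to 0.74, Egr3 -1.53 to 0.12, Klf4 -0.77 to 0.15, Klf10 -0.16 to 0.079, Nr4a1 -0.20 to 2.33 and Nr4a2 -0.92 to 1.10. Feedback inhibitors: Dusp1 -0.39 to 0.67, Dusp2 -1.21 to 2.11, Socs3 -0.61 to 0.66, Nfkbia -0.47 to 0.54 and Zfp36 -0.039 to 0.57. Growth and stress genes: Btg1 -0.039 to 0.60, Gadd45b -0.62 to 1.21, Gadd45g -1.15 to 0.70, Rhob -0.44 to 0.20 and Ptgs2 -6.35 to 0.42. The sign of 12 members held in all 15 alternatives that tested them. Fosl1 and Nr4a3 did not pass the filter. Maff, Nfil3, Egr3 and Ptgs2 had low values in some libraries, with SEs of 2.01 to 2.60, where the median SE of the members was 0.36. How far depth and the spread between libraries each limit these values was not tested.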
